A study of Mus musculus with 6 samples.

Results

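The family C receptors are the genes Vmn2r1 to Vmn2r7, a small branch of the V2R vomeronasal receptors. The rule is the gene name and uses no measured value, although the family was picked for description with earlier results of these data known. All 7 were found among 35450 genes, with 24 annotated transcripts, and 114 other numbered Vmn2r genes served for comparison. The data are poly(A) RNA sequencing of the vomeronasal organ, the paired pheromone-sensing organ of the nasal septum. Organs of both sides of a mouse made 1 library. Wild-type (Cnpy1+/+) mice were compared with littermates homozygous for a Cnpy1 knockout (Cnpy1-/-), all at postnatal day 60, with 3 mice per genotype (2 males and 1 female). Wild-type replicate 2 and knockout replicate 3 are the females. How the knockout allele was made is not given in the sources used here, and the labels do not say that it is limited to a cell type.

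V2Rs are G protein-coupled receptors with a long extracellular domain that binds peptide and protein cues. They are made by the basal class of vomeronasal sensory neurons, which signal through the G protein subunit encoded by Gnao1. A basal neuron usually makes a selected receptor of the larger V2R families together with family C members, which are therefore called co-receptors. Vmn2r1 is known to be made in other neurons than those that make Vmn2r2 to Vmn2r7. Cnpy1 encodes a Canopy protein of the endoplasmic reticulum, the compartment in which receptors fold.

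Libraries held 60969508 to 71670766 estimated reads, of which each member had between 1144 and 14854. Cnpy1 itself fell to 24.3% of its wild-type level, with each knockout below each wild type, so each library matched its label. The neurons that make V2Rs were represented by basal markers. Gnao1 lay between 305 and 320 CPM (reads scaled to library size, with TMM factors between libraries) in wild type and between 225 and 240 CPM in knockouts. Tfap2e, a transcription factor of basal neurons, lay between 29.2 and 30.4 CPM in wild types and between 23.4 and 27.1 CPM in knockouts.

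The 7 genes form a cluster on chromosome 3 between 64081547 and 64844765 (GRCm38, GENCODE M21), a span of 763219 bases. Vmn2r1 (ENSMUSG00000027824.5) lies at one end on the plus strand, and Vmn2r2 (ENSMUSG00000043897.13) to Vmn2r7 (ENSMUSG00000062200.14) follow in numerical order on the minus strand. Their coding sequences, 2724 to 2745 bases long in the longest models, were compared to see how far reads can be told apart. Vmn2r6 and Vmn2r7 shared 98.8% of aligned coding bases, and Vmn2r4 shared 97.3% with Vmn2r7 and 96.8% with Vmn2r6. Vmn2r2 and Vmn2r5 shared 93.3%. Vmn2r1 stood 84.4% to 88.0% from each of the others, and the remaining pairs lay between 86.8% and 89.7%. Of 2712 columns with no gap, 80.0% held the same base in Vmn2r2 to Vmn2r7.

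Among stretches of 60 bases with no gap in any member, the one in which Vmn2r2 to Vmn2r7 differ at most columns (45) is printed below. It shows how far the members are told apart by their letters. Vmn2r5 stays close to Vmn2r2, and Vmn2r6 to Vmn2r7. Vmn2r4 is less like Vmn2r6 and Vmn2r7 in this stretch than over the whole coding sequence. It runs over the junction of coding exons 3 and 4 of 6, at coding bases 1345 to 1404 of Vmn2r2 (chr3:64126696-64133948, minus strand, with the intron between). In Vmn2r1 it covers coding bases 1357 to 1416 (chr3:64090281-64101317, plus strand, with the intron between). Sequences are from GENCODE M21 transcripts on GRCm38, 5′ to 3′ along the coding strand. Capitals mark each base that differs from Vmn2r2, of which there were 26 in Vmn2r1, 31 in Vmn2r3, 30 in Vmn2r4, 3 in Vmn2r5 and 23 each in Vmn2r6 and Vmn2r7.
Vmn2r1: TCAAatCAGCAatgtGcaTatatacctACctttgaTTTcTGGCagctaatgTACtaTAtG
Vmn2r2: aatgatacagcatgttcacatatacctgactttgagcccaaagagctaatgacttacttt
Vmn2r3: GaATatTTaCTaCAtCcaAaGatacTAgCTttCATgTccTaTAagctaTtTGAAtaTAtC
Vmn2r4: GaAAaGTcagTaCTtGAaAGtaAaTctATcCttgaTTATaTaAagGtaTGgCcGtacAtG
Vmn2r5: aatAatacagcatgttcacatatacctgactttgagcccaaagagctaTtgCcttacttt
Vmn2r6: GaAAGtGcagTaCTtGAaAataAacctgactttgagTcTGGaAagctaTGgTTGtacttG
Vmn2r7: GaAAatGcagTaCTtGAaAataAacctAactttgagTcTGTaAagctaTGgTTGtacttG

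Vmn2r6 and Vmn2r7 are the members whose reads are hardest to separate. No window of 60 coding bases without a gap in any family member holds more than 3 differences between these 2 genes. The first such window with 3 along the sequence is printed, with those bases in capitals in both lines. It lies in coding exon 1, at chr3:64565116-64565175 in Vmn2r6 and chr3:64724851-64724910 in Vmn2r7, both on the minus strand.
Vmn2r6: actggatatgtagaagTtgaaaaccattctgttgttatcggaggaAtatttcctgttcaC
Vmn2r7: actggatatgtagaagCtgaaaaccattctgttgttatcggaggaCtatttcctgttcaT

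Uniqueness was measured as the percent of the 31-base words in a gene's transcripts, read on both strands, that no other quantified gene holds. It was 93.7% for Vmn2r3, 78.2% for Vmn2r1, 77.4% for Vmn2r2 and 64.1% for Vmn2r4. Vmn2r6 and Vmn2r7 had 35.5% and 35.8%, and 58.7% of the words of Vmn2r6 are also in Vmn2r7. Vmn2r5 had 50.5%, and shares 42.3% of its words with the pseudogene Vmn2r-ps11, which lies between Vmn2r6 and Vmn2r7. That pseudogene was estimated at 0.0940 to 0.257 CPM, against 18.7 to 25.7 CPM for Vmn2r5. By this measure Vmn2r3, Vmn2r1 and Vmn2r2 had the most words of their own, while the split between Vmn2r6 and Vmn2r7 is an estimate. The words are not weighted by reads. Those of Vmn2r3 include long models with few reads, such as Vmn2r3-203 with 1.10% of the gene's reads in wild type.

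**Figure D1:**
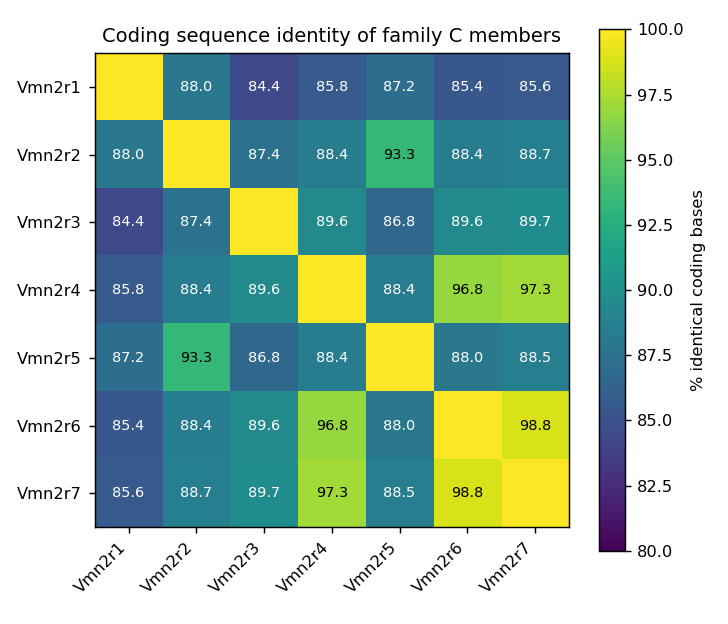
Percent of identical bases between the coding sequences of each pair of family C members, by colour and number, over aligned bases of the longest coding model of each gene. Vmn2r4, Vmn2r6 and Vmn2r7 form a block at 96.8% to 98.8%, Vmn2r2 and Vmn2r5 a pair at 93.3%.

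Per length, the level in wild type ran from 60.2 ± 4.66 TPM for Vmn2r2 (SD, n = 3) to 6.30 ± 1.18 TPM for Vmn2r5 (SD, n = 3). TPM is a transcript's abundance per length relative to all transcripts, summed here over a gene. Between them came Vmn2r7 at 53.6 ± 6.33, Vmn2r6 at 43.2 ± 5.07, Vmn2r4 at 35.2 ± 4.22, Vmn2r3 at 23.6 ± 2.88 and Vmn2r1 at 21.3 ± 1.04 TPM (SD, n = 3 each). The wild-type ranges of the neighbours Vmn2r2 and Vmn2r7, Vmn2r6 and Vmn2r4, and Vmn2r3 and Vmn2r1 overlapped, and the other neighbours were separate. In knockouts the order was the same, from 41.7 ± 0.738 TPM for Vmn2r2 to 4.95 ± 0.257 TPM for Vmn2r5 (SD, n = 3 each), and the only overlap was between Vmn2r6 and Vmn2r4. By reads the order was another one: Vmn2r7 had the most, with 24.9% ± 0.356 (SD, n = 3) of family reads in wild type, and Vmn2r2 had 17.6% ± 0.257 (SD, n = 3). The place of Vmn2r2 per length depends on how reads were divided among its models, since 37.1 to 42.3 TPM of its wild-type level were assigned to a model of 2484 bases.

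The comparison of genotypes asked which co-receptors change without Cnpy1. Vmn2r1, Vmn2r6 and Vmn2r7 were lower in the knockout, at 60.7%, 63.7% and 65.7% of the wild-type mean. Estimates for Vmn2r2, Vmn2r4, Vmn2r5 and Vmn2r3 were 73.9%, 78.0%, 83.4% and 91.9%, and these did not pass the test. Calls are genes with an adjusted p under 0.05 in edgeR's quasi-likelihood test, adjusted over the 16679 genes tested. The 3 calls among 7 members stand beside a background of 0.683% of genes tested that were called lower. All knockouts lay below all wild types in 5 of the 7 members, beside 8.95% of genes tested. In whole-organ RNA, fewer cells that make a gene and less RNA of it per cell cannot be told apart.

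Vmn2r1 was measured at 111, 109 and 105 CPM in the wild types and at 66.8, 68.6 and 62.6 CPM in the knockouts. The gap between the groups was far wider than the spread within either. By edgeR the log2 fold change was -0.72 with an SE of 0.06 (adjusted p = 0.000612). This was the call with the smallest standard error of the family, and it held under all 17 alternatives tried.

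The near-identical Vmn2r6 and Vmn2r7 moved alike. Vmn2r6 was at 171, 188 and 169 CPM in wild types and 114, 121 and 101 CPM in knockouts, and edgeR gave a log2 fold change of -0.65 with an SE of 0.08 (adjusted p = 0.00866). Vmn2r7 was at 205, 227 and 199 CPM in wild types and 138, 149 and 127 CPM in knockouts, and edgeR gave -0.61 with an SE of 0.08 (adjusted p = 0.0115). In both, the female wild type was the highest library and the female knockout the lowest, and the groups were apart. With the reads of both summed before the fit, an alternative chosen after seeing the data, edgeR gave -0.63 with an SE of 0.08 (adjusted p = 0.0102), so the call does not rest on how reads were split between them. Summed also with Vmn2r4 the log2 fold change was -0.56 (edgeR adjusted p = 0.0231), and summed with all of Vmn2r2 to Vmn2r5 it was not called (edgeR adjusted p = 0.0514). The call of Vmn2r6 ended when the female wild type was left out (replicate 2, log2 fold change -0.60, edgeR adjusted p = 0.0553). That of Vmn2r7 ended when edgeR was run leaving out wild-type replicate 1, wild-type replicate 2 or knockout replicate 1 (adjusted p = 0.0547, 0.0668 and 0.0581). It also ended in edgeR on males alone (adjusted p = 0.0854) or with effective transcript lengths as an offset (0.0511). In the same order, the log2 fold changes of Vmn2r7 were -0.62, -0.55, -0.61, -0.49 and -0.60.

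Vmn2r2 and Vmn2r4 had groups that did not overlap but were not called. Vmn2r2 was at 148, 157 and 142 CPM in wild types and 110, 122 and 98.4 CPM in knockouts, and edgeR gave -0.44 with an SE of 0.08 (adjusted p = 0.0721). Vmn2r4 was at 107, 118 and 106 CPM in wild types and 81.9, 98.4 and 77.7 CPM in knockouts, and edgeR gave -0.36 with an SE of 0.09 (adjusted p = 0.207). In Vmn2r4 the highest knockout lay just under the lowest wild type. The DESeq2 Wald test called both, so that 5 members were lower, beside 1.9% of all genes. Vmn2r2 was also called by edgeR with no scaling factors (adjusted p = 0.0325), with no filter on low counts (0.0368) and with robust estimates (0.0389), settings under which 0.528%, 0.595% and 0.857% of genes were called lower.

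Vmn2r3 and Vmn2r5 had overlapping groups. Vmn2r3 was at 63.9, 71.7 and 64.7 CPM in wild types and 55.0, 71.2 and 57.9 CPM in knockouts. Knockout replicate 2 reached the range of the wild types while the others lay below it, and edgeR gave a log2 fold change of -0.12 with an SE of 0.10 (adjusted p = 0.745). Vmn2r5, the least abundant member, was at 19.9, 25.7 and 24.2 CPM in wild types and 19.1, 20.4 and 18.7 CPM in knockouts. For it edgeR gave -0.26 with an SE of 0.10 (adjusted p = 0.388), and summing it with Vmn2r-ps11, also chosen after seeing the data, gave -0.26 (edgeR adjusted p = 0.392). Neither gene was called under any of the 17 alternatives.

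**Figure D2:**
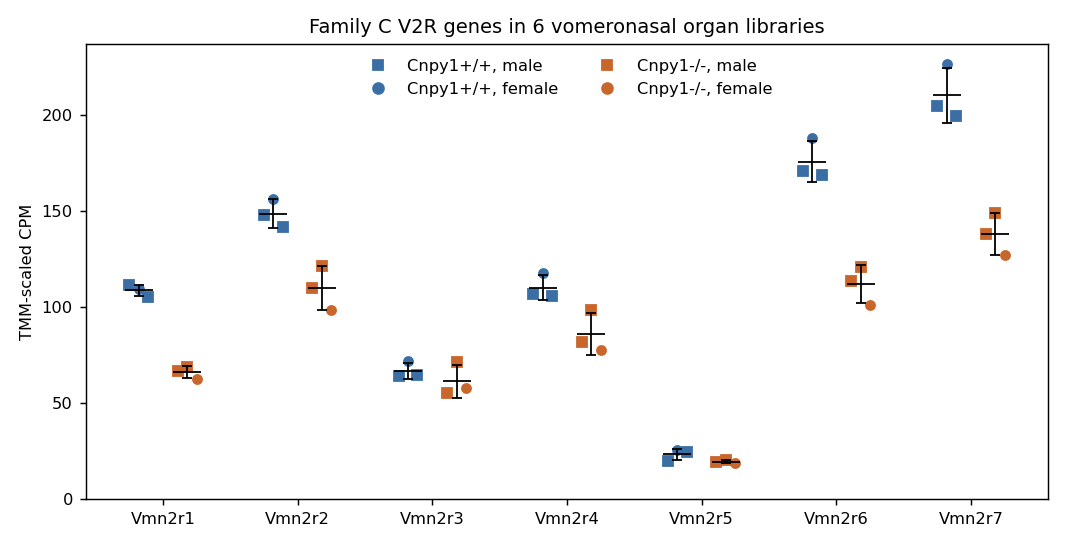
TMM-scaled CPM of each family C gene in each library, squares for males and circles for females, with mean and SD (n = 3) in black. The 3 knockouts lie below the 3 wild types for Vmn2r1, Vmn2r2, Vmn2r4, Vmn2r6 and Vmn2r7, and overlap them for Vmn2r3 and Vmn2r5.

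Summing the family leaves out how reads were divided among its members. The sum was 799, 917 and 845 CPM in wild types and 569, 616 and 570 CPM in knockouts (scaled to each library's reads in genes, without TMM factors). Each knockout was below each wild type, with means of 854 ± 59.8 and 585 ± 26.9 CPM (SD, n = 3 each), or 68.5% of wild type. The mean log2 difference was -0.54 (two-sided exact permutation p = 0.1, the smallest that 3 against 3 mice allow).

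The share of each member in the family's reads was then compared. Vmn2r1 supplied 12.9% ± 0.649 of family reads in wild type and 11.2% ± 0.532 in the knockout (SD, n = 3 each). Its log2 ratio to Vmn2r2 to Vmn2r7 together was lower by 0.24 in knockouts, whose values did not overlap the wild types, but the test cannot fall below its limit (two-sided exact permutation p = 0.1). Vmn2r3 supplied 7.73% to 8.01% of family reads in wild types and 9.40% to 10.9% in knockouts. For Vmn2r4 the share was 13.1% ± 0.112 and 14.5% ± 0.587, and for Vmn2r6 20.8% ± 0.138 and 18.9% ± 0.480 (SD, n = 3 each). Vmn2r2 supplied 17.6% ± 0.257 and 18.5% ± 0.373, Vmn2r5 2.76% ± 0.304 and 3.28% ± 0.149, and Vmn2r7 24.9% ± 0.356 and 23.3% ± 0.367 (SD, n = 3 each). By reads, the shares of Vmn2r2 to Vmn2r5 were higher in each knockout than in each wild type and those of Vmn2r1, Vmn2r6 and Vmn2r7 lower. The 7 shares sum to 100% and so are not independent, and read ratios without overlap were common among other V2R genes too (75.3% of their pairs), so nothing is read from this count. As shares of the family's TPM, the genotypes overlapped for Vmn2r2 and Vmn2r5.

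Read ratios were compared for all 21 pairs of members. The genotypes did not overlap in 15 pairs, beside that 75.3% of the 6216 pairs among the other V2R genes tested. The pairs share genes, and the difference between these shares was not tested. Each of the 15 had a two-sided exact permutation p of 0.1, and none passed after adjustment over the 21 (smallest adjusted p = 0.14, exact permutation test). The widest shift was of Vmn2r1 against Vmn2r3, whose log2 ratio was 0.71 ± 0.10 in wild type and 0.11 ± 0.17 in the knockout (SD, n = 3 each). Vmn2r6 against Vmn2r7 shifted least among the pairs without overlap, from -0.26 ± 0.02 to -0.30 ± 0.02 (SD, n = 3 each).

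**Figure D3:**
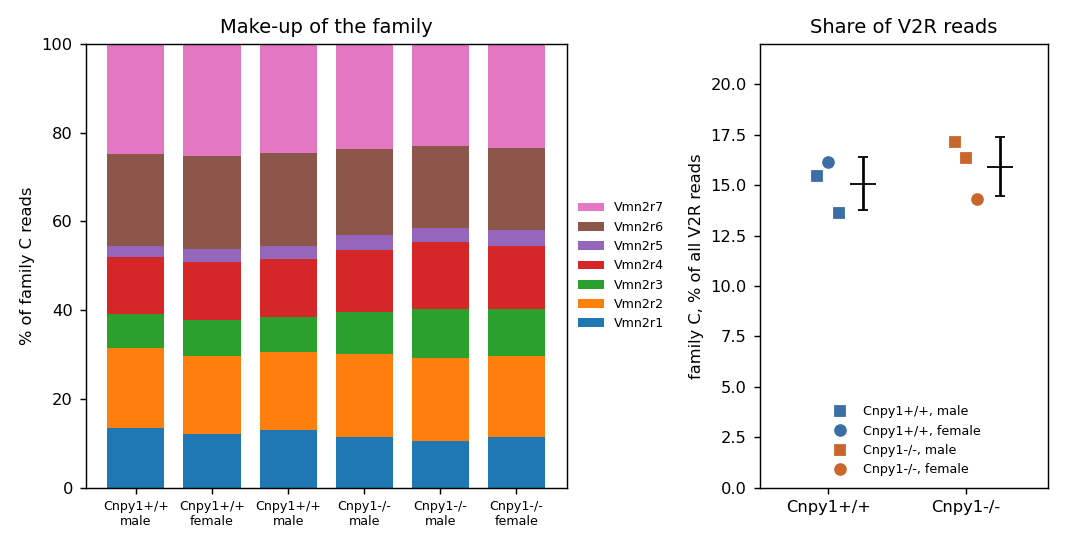
Left, percent of family C reads from each member in each library, stacked to 100%. Right, family C reads as a percent of all V2R reads, squares for males and circles for females, with mean and SD (n = 3). Vmn2r3 takes 7.73% to 8.01% in wild types and 9.40% to 10.9% in knockouts, while the family's share of V2R reads overlaps between genotypes.

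Family C was then set beside the other V2Rs, the receptors its members are made with. Reads of the other V2R genes came to 4832 ± 503 CPM in Cnpy1+/+ and 3108 ± 337 CPM in Cnpy1-/- mice (SD, n = 3 each), 64.3% of wild type. Family C made up 15.5%, 16.2% and 13.6% of all V2R reads in wild types and 17.2%, 16.3% and 14.3% in knockouts. These ranges overlapped, and the log2 difference of family C against the other V2R genes was 0.09 (two-sided exact permutation p = 0.5). That value rests on single libraries: over the 6 versions that left out 1 library it ran from 0.0089 (without wild-type replicate 3) to 0.18 (without knockout replicate 3), and was 0.027 without knockout replicate 1 and 0.16 without wild-type replicate 2. Exact permutation of 3 against 3 cannot fall below 0.1, so a difference of the sums is neither shown nor excluded.

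Single genes of the other V2Rs were spread much more widely. Of the 112 tested, 58 were called lower and 7 higher, with a median log2 fold change of -0.76 and quartiles of -1.86 and -0.13. Family C had a median of -0.44 and lay between -0.72 and -0.12, so no member reached a 2-fold change. Vmn2r1 had a larger fall than 54 of the 112 and a smaller one than 58. Vmn2r3 lay above 84 of them. The median over all genes tested was 0.01.

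**Figure D4:**
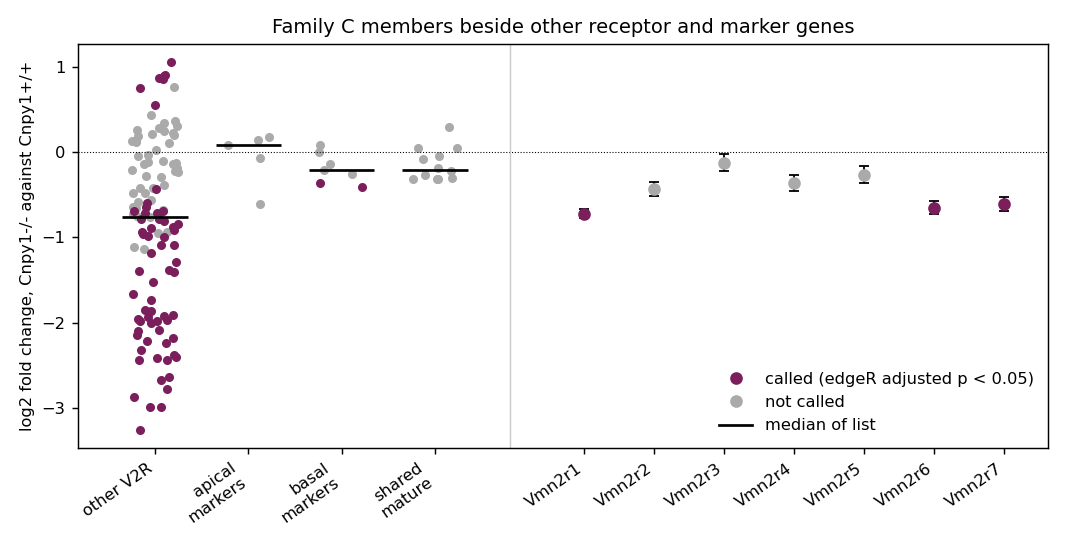
Log2 fold change in the knockout for the other V2R genes, apical and basal neuron markers and shared mature neuron genes (1 point per gene, line at the median), and for each family C member with its SE. Purple points were called by edgeR; other V2Rs spread from -3.25 to 1.05, and family C members from -0.72 to -0.12.

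Of 7 markers of basal neurons, 2 were called lower: Gnao1 (log2 fold change -0.41, edgeR adjusted p = 0.0143) and Apmap (-0.36, edgeR adjusted p = 0.0292). The other 5 were not called, with log2 fold changes of -0.26 for Tfap2e, -0.21 for Robo2, -0.14 for Calr4, 0.0024 for Kirrel3 and 0.09 for Nsg1, and the median of the list was -0.21. Their summed level was 1567 to 1613 CPM in wild types and 1359 to 1394 CPM in knockouts. Relative to the mean log2 level of these markers, summed family C was lower by 0.33 in knockouts, with no overlap (two-sided exact permutation p = 0.1). Of 12 genes shared by mature vomeronasal neurons, 0 were called by edgeR, and the median was -0.20. An unadjusted p under 0.05 was found in 7 of them, beside 1758 of the 16679 genes tested. Omp, a marker of mature olfactory and vomeronasal neurons, had means of 1147 ± 108 CPM in Cnpy1+/+ and 928 ± 34.8 CPM in Cnpy1-/- mice (SD, n = 3 each), which edgeR did not call (-0.31, adjusted p = 0.203). The part of these marker levels in the results for family C was not tested beyond that ratio.

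H2-Mv genes encode nonclassical class I proteins made in basal neurons along with some V2Rs. Of 9 tested, H2-M10.3 and H2-M10.1 were called lower, and the median was -0.25. H2-M10.4 lay the other way, at 135% of wild type with each knockout above each wild type, and was not called (log2 fold change 0.44, edgeR adjusted p = 0.162). Apical neurons make V1R receptors, and of 169 V1R genes tested 0 were called by edgeR, with a median of 0.11. Of them, 20 had an unadjusted p under 0.05, beside 1758 of the 16679 genes tested. Estimates below 0 were found in 34, beside 7962 of the 16679. These 2 backgrounds also stand beside the counts of the lists that follow. Apical markers had 0 of 5 called and 2 with an unadjusted p under 0.05, with a summed level of 1338 to 1463 CPM in wild types and 1366 to 1456 CPM in knockouts. Within that sum Kirrel2 was at 65.7% of wild type with each knockout below each wild type (log2 fold change -0.61, edgeR adjusted p = 0.143), while in Gnai2 (0.17) and Meis2 (0.14) each knockout was above each wild type. Markers of supporting, immune, vascular, glial, gland and main olfactory cells numbered 38 tested, with 0 called by edgeR and 6 with an unadjusted p under 0.05. Ano2, Cnga4 and Rtp1 were counted both here, as main olfactory genes, and among the genes shared by mature vomeronasal neurons. Ano2 was among the 6. Of these 6, 3 were among the 7 immune genes (Ptprc, C1qa and C1qb), all 7 of which had estimates above 0, with a median of 0.15 and a summed level of 891 to 963 CPM in wild types and 864 to 994 CPM in knockouts. Among 10 progenitor and immature neuron genes, Top2a, which acts in dividing cells, was called higher (log2 fold change 0.40, edgeR adjusted p = 0.0421). Of these 10, 9 had estimates above 0, and the median was 0.23. An unadjusted p under 0.05 was found in 4, among them Tubb3, whose estimate was below 0. Mki67, also of dividing cells, was at 142% of wild type with each knockout above each wild type but was not called, and Tubb3, a neuronal tubulin, had each knockout below each wild type (log2 fold change -0.16) and was not called.

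Sexes were compared within the design, which has 1 female per genotype. In males, the log2 difference of group means was -0.68 for Vmn2r1, -0.53 for Vmn2r6, -0.49 for Vmn2r7, -0.32 for Vmn2r2, -0.24 for Vmn2r4, -0.16 for Vmn2r5 and -0.03 for Vmn2r3. In the female pair these values were -0.80, -0.89, -0.83, -0.67, -0.60, -0.46 and -0.31 in the same order of genes. The estimates were below 0 in both sexes and further from 0 in the female pair, which is 1 library against 1 and has no spread of its own. The male estimates of Vmn2r3 and Vmn2r5 came from libraries that overlap between genotypes. By edgeR's interaction term 0 of 7 members were called, beside a background of 0.024%, and 3 had an unadjusted p under 0.05, as did 750 of the 16679 genes tested. With 1 female per genotype, the spread in that fit came from the 2 males of each genotype alone. Their interaction terms ran from -0.36 to -0.13, with edgeR adjusted p from 0.958 to 0.960.

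The annotation gives most members a long model and a short one. Models 201 of Vmn2r2, Vmn2r4, Vmn2r5 and Vmn2r6 and model 203 of Vmn2r7 are 2484 bases long, lack coding exon 1 of the long models, and contain 0% of 31-base words that are theirs alone. A read inside a short model can therefore come from the long one as well. Vmn2r5-201 had 0 reads in all 6 libraries, so all reads of Vmn2r5 were assigned to its long model Vmn2r5-202. By contrast, the short models held 46.7% ± 0.861 of the reads of Vmn2r2, 38.8% ± 3.61 of Vmn2r4, 24.3% ± 2.37 of Vmn2r6 and 25.7% ± 2.80 of Vmn2r7 in wild type (SD, n = 3 each).

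Of the 24 transcripts, 22 passed the filter on low counts and were tested over all transcripts. Vmn2r1-201, the sole model of Vmn2r1, was called lower by edgeR (log2 fold change -0.71, adjusted p = 0.0242), beside a background of 0.0945% of transcripts. That call was lost with sex as a term, in males only and in each of the 6 fits that left out 1 library, where its log2 fold change lay between -0.67 and -0.74 (edgeR adjusted p from 0.105 to 0.397). Vmn2r6-202 was next at -0.66 with an SE of 0.07 (edgeR adjusted p = 0.0627). Estimates were below 0 for 16 transcripts and above 0 for 6, beside a median of -0.0018 over the 43405 transcripts tested. Models of a gene share reads, so these estimates are not independent. All knockouts lay below all wild types for 9, beside 6.33% of transcripts tested. These 9 were Vmn2r1-201 and models of Vmn2r2, Vmn2r4, Vmn2r6 and Vmn2r7.

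Whether the models of a gene shifted against each other was tested for 20 transcripts. By edgeR, 0 were called for a change in share, beside a background of 0.166%, and the smallest adjusted p was 1.00. Vmn2r4-204, annotated as a target of nonsense-mediated decay, had the only unadjusted p under 0.05. It held 6.84% ± 1.43 of the reads of Vmn2r4 in wild type and 11.1% ± 3.50 in the knockout (SD, n = 3 each). Knockout replicate 2 had the highest share, and without that library the log2 fold change of the transcript was -0.02 in place of 0.39. For Vmn2r2, the long model Vmn2r2-202 held 53.3% ± 0.861 of reads in wild type and 54.4% ± 0.618 in the knockout (SD, n = 3 each).

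Vmn2r7 showed how far estimates of near-identical models can vary between mice of 1 genotype. Vmn2r7-202 held 27.8%, 33.7% and 18.5% of the gene's reads in wild types and 32.1%, 43.9% and 21.4% in knockouts. Vmn2r7-204 held 44.7%, 39.3% and 59.0% in wild types and 42.8%, 28.5% and 53.9% in knockouts. Where one was high the other was low, and at most 3.40% of the words of either are theirs alone. The sum over the gene was steadier, at 210 ± 14.5 CPM in wild type (SD, n = 3) against 56.9 ± 20.2 CPM for Vmn2r7-202 (SD, n = 3).

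**Figure D5:**
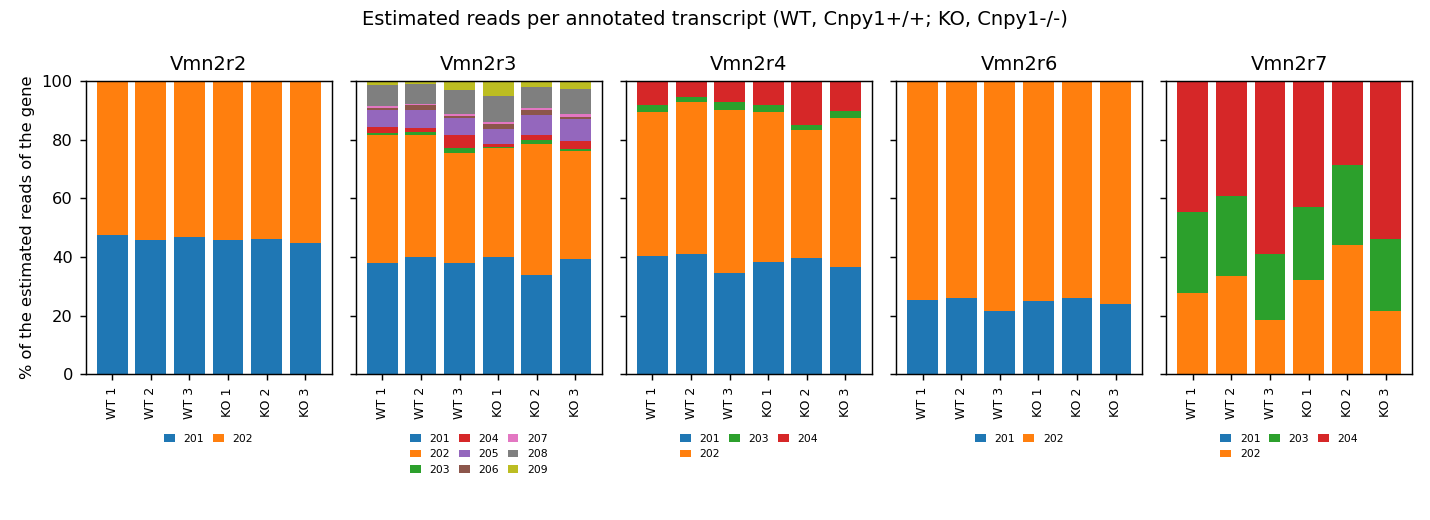
Percent of each gene's estimated reads assigned to each annotated transcript, per library, for the 5 members with more than 1 transcript in use. Bars of Vmn2r2 and Vmn2r6 are alike in all libraries, while Vmn2r7-202 ranges from 18.5% to 43.9%.

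Genes inside and beside the cluster were also measured. Inside it lie 13 other quantified genes, mostly V2R pseudogenes, of which only Vmn2r-ps11 had enough reads to be tested (log2 fold change 0.12 with an SE of 0.47, edgeR adjusted p = 0.963), at the low level given above. Within 500 kb on either side 11 more genes were quantified and 5 tested, with 0 called by edgeR and log2 fold changes from -0.15 to 0.06. These flanking genes, outside the cluster and chosen after their values were seen, were Plch1, Slc33a1, Gmps, E130311K13Rik and Kcnab1. Whether the region changed as a whole was not tested.

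Promoter windows of the members were searched for 3 short motifs. RefSeq's table (GRCm38.p6, 250 bases before to 50 after the start) had a window for 6 of the 7 members. Those of Vmn2r2, Vmn2r3, Vmn2r4, Vmn2r6 and Vmn2r7 begin at shorter models, inside the longer GENCODE model, so they may not be the start in use. On both strands, TGGGAA (the motif of Rbpj) was found in the windows of Vmn2r2, Vmn2r4, Vmn2r6 and Vmn2r7 and in 25.6% of 32851 promoters. GCCNNNGGC (AP-2) was in the window of Vmn2r2 and in 16.6% of promoters, and CCCNNGGG (Ebf) in no member and in 13.7% of promoters. The windows of Vmn2r6 and Vmn2r7 are 99.3% identical, and that of Vmn2r4 is 96.3% and 95.6% identical to them, so the matches of these 3 members are not independent. The windows of Vmn2r1 and Vmn2r3 held none of the 3 motifs. Whether a motif bears on the level of a member was not tested.

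Genes whose level followed the family over the 6 libraries were ranked by Pearson's r among the 12488 genes that averaged 5 CPM or more. With summed family C these were Fam3c (r = 0.995), Trim45 (0.995), Copg2 (0.994), Tsnax (0.994) and Cers5 (0.989). With Vmn2r1 they were Pex5l (r = 0.996), Arel1 (0.995), Rnf167 (0.995), Znrf2 (0.994) and Gm14496 (0.992). The 6 points share the split between genotypes, and all 10 genes had lower means in the knockout. Of these, Gm14496 alone was called, at 15.8 ± 0.679 CPM in Cnpy1+/+ and 7.12 ± 0.787 CPM in Cnpy1-/- mice (SD, n = 3 each, edgeR adjusted p = 0.00106).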

How the data were processed

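The authors deposited, per library, estimated counts (expected reads) and TPM for 117081 transcripts, per the file headers. The submitters' processing notes name Trim Galore 0.6.6, Salmon 1.9.0, DESeq2 and the builds mm10 and GRCm38. The annotation release is not given in the sources used here. A quantifier of this kind divides reads that fit several transcripts by estimation.

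Transcripts were joined to genes by identifier in GENCODE M21; the 1139 without a match held 0.304% of reads. Estimated counts were summed per gene, rounded and tested with edgeR 4.0.16 in R 4.3.3: TMM scaling, filterByExpr, genotype as the only term, quasi-likelihood F test and Benjamini-Hochberg adjustment over all genes or transcripts tested. Shares of transcripts were tested with diffSpliceDGE, and sex with an interaction term. SE is the log2 fold change divided by the square root of F. Ratios of sums were compared by exact permutation over mice. In the ratios of pairs of other V2R genes 0.5 reads were added, and in those of member pairs none. The edgeR fits of genes, transcripts, transcript shares and the interaction were run on simulated data. There, 7.37% of share calls fell in unchanged genes over 38759 transcripts. Alternatives used DESeq2 1.42.0, limma 3.58.1 and other settings. MAFFT 7.526 aligned the coding sequences, under Python 3.11.15.

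Each mouse was 1 replicate. Genes named are the 7 members and their transcripts, Cnpy1, members of the marker lists, genes inside or within 500 kb of the cluster, and the 5 genes most like summed family C and Vmn2r1; the neighbouring genes were added after their values were seen. The members and lists were chosen with earlier results of these data known.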

Additional observations from a re-analysis of the deposited data

Results flagged for a closer look

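The family's share of all V2R reads moved apart between the sexes. Both male knockouts (17.2% and 16.3%) lay above both male wild types (15.5% and 13.6%), a log2 difference of 0.24 against the other V2R genes, while the female knockout (14.3%) lay below the female wild type (16.2%), a difference of -0.21. The female value minus the male value was -0.45. With 1 female per genotype this difference was not tested.

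A pair of transcripts of Vmn2r3 did the same at low levels. On the log2(CPM + 0.5) scale, Vmn2r3-204 differed by -0.92 in males and 0.33 in the female pair, 1.25 apart. Vmn2r3-206 differed by 0.70 in males and -0.63 in the female pair, -1.33 apart. Their means were at most 1.7 CPM in either genotype, and less than 1% of the 31-base words of either are theirs alone. Neither difference between sexes was tested.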

How the results depend on the processing

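Members called lower numbered 3; with the DESeq2 Wald test 5 were called, and leaving out 1 library gave 1 to 3, with 1 (Vmn2r1) without wild-type replicate 2. The 1 transcript called became 0 with sex as a term, 0 in males only and 0 in each of the 6 fits without 1 library. The signs of the 7 members, of Cnpy1 and of the 4 ratios of sums held under each alternative run. Signs turned for single transcripts: Vmn2r7-202 in males only (0.24), Vmn2r3-202 in males only (0.0018), Vmn2r3-208 with no scaling factors (-0.030) and when single libraries were left out (-0.032 to 0.059, below 0 without wild-type replicate 1 or knockout replicate 2), Vmn2r3-205 without wild-type replicate 1 (-0.00091), knockout replicate 2 (-0.12) or knockout replicate 3 (-0.0058, others up to 0.24), Vmn2r3-203 without wild-type replicate 3 or knockout replicate 1 (over all 6 such fits -0.83 to 0.14), and Vmn2r4-204 without knockout replicate 2 (-0.021, others up to 0.61). The cause was not tested.

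Replicate numbers did not pair the mice: deviations of same-numbered libraries correlated at 0.25, -0.07 and 0.29. With the replicate block, 5 members were called lower (background 0.725%), with Vmn2r2 and Vmn2r4 added (edgeR adjusted p = 0.0219 and 0.0475), and 0 transcripts. With 3 mice per genotype, exact permutation cannot pass 0.05.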
